A study of Mus musculus with 8 samples.

Results

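Cumulus and granulosa cells, the somatic cells around the oocyte, are known to express the 10 genes described here: Inha, Inhba, Inhbb, Kitl, Fshr, Nr5a2, Cyp19a1, Has2, Ptgs2 and Gja1. They were chosen by name, as known genes of these cells, out of 52502 genes with an exon in the deposited files. For each gene the deposited counts of its exons were added up, and the sums were compared between control and knockout oocytes and followed from library to library. The samples were isolated oocytes, not follicles, so these transcripts were measured in a preparation labelled as another cell type.

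Granulosa cells feed and restrain the oocyte through direct contact and secreted ligands. Those that touch the oocyte, the cumulus cells, are coupled to each other and to it by gap junctions, and after the ovulatory signal they secrete a hyaluronan matrix and expand. Inhibins and activins are dimers built from an alpha subunit (inhibin only) and beta subunits, and they set the release of follicle-stimulating hormone from the pituitary.

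Both groups were germinal vesicle (GV) oocytes of C57BL/6 females, given as 20 days old in one label and as 3 weeks old in another. The females had received 5 IU of PMSG, a gonadotropin that drives follicle growth, 48 hours before oocytes of at least 70 µm were released from antral follicles by puncture. Oocytes of both groups were collected with 2.5 mM milrinone in the medium, a phosphodiesterase inhibitor that holds them in meiotic arrest. Controls were Kiaa1429F/+;Zp3-Cre and knockouts were Kiaa1429F/F;Zp3-Cre, called Kiaa1429Zp3cKO and here cKO. Zp3-Cre is a recombinase driven by an oocyte promoter and was present in both groups, so that control oocytes lose 1 copy of Kiaa1429 (now Virma, a subunit of the m6A RNA methylation complex) and cKO oocytes both, while the somatic cells around them keep theirs by design. Each group had 4 libraries of about 20 oocytes. The labels mention 4 experiments without tying libraries to experiments or animals, so the p-values cover only the scatter among libraries, which may be technical. The labels' protocols name no step that removes cumulus cells.

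Counts on exons ranged from 4247471 to 4790038 in the control libraries and from 4399190 to 5064008 in the cKO libraries. Levels are given as CPM, a count scaled to the size of its library, in which 3 counts correspond to 0.562 to 0.789 CPM. Virma itself fell from 67.9 ± 11.2 to 19.4 ± 3.26 CPM (SD, n = 4 each), with a log2 fold change of -1.81 (SE 0.18, edgeR adjusted p = 1.02e-06), and its groups did not overlap. Defining oocyte genes were abundant: the 12 oocyte markers summed to 36939 to 50022 CPM in controls and 19267 to 23359 in the cKO. Most of this came from Bmp15 and Gdf9, at 18799 and 13582 CPM on average in controls. Counts were low for Zp2 (3.68 to 6.20 CPM over all 8 libraries), Kit (4.30 to 12.6) and H1foo (0.222 to 1.55). Zp2 and H1foo have only 700 and 103 bases that belong to a single exon ID. Kit has 4375 such bases, and Zp3, with 708, was at 235 CPM on average in controls and 227 in the cKO. A read shared by several exon IDs enters no gene's count, so a low count by itself does not show low expression. Why the counts of Zp2, Kit and H1foo were low was not tested. The 10 genes together summed to 267.0 to 589.6 CPM in controls and 478.1 to 957.2 in the cKO. In such bulk libraries fewer or more cells of a type and less or more RNA per cell cannot be told apart.

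The following sequences, written in the sense direction, are stretches of 4 of these genes. Coordinates are those of mm10 and the sequences are the GENCODE M21 transcripts. The first pair is the last 150 coding bases before the stop codon of Inhba (chr13:16026977-16027126, plus strand) and Inhbb (chr1:119417325-119417474, minus strand), which encode the C-terminal ends of the activin beta subunits. They are shown to compare the subunits. The Inhbb window lies in the last exon that holds most of its counts, whereas the Inhba window lies in bases shared by 2 exon IDs of the gene, and its counts come from elsewhere. Capitals mark the bases that are identical in a global alignment with gaps, in which 147 bases of each are aligned and 108 (73.5%) agree, in runs of at most 18.
Inhba: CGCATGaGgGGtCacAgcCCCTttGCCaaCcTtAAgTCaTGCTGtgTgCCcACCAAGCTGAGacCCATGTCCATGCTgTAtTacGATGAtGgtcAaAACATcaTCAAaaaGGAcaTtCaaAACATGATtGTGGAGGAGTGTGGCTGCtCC
Inhbb: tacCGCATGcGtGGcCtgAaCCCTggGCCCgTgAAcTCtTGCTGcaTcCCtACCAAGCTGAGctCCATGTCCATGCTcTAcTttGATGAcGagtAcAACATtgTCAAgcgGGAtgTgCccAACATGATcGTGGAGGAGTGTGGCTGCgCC
The genes are thus close relatives, but no identical run approaches a read of 150 bases.

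The next is the internal coding exon of Cyp19a1 that holds 63.9% of its counts (chr9:54168507-54168748, minus strand, 242 bases), shown because the fall of the gene is measured on it. It holds GGACT, a common core of the m6A site, once, in capitals.
Cyp19a1: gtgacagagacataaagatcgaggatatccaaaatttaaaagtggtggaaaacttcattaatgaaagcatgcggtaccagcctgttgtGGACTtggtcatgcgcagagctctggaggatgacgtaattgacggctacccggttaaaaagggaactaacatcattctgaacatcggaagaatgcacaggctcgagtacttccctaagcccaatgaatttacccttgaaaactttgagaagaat
The last is the coding part of the first exon of Inha (chr1:75507248-75507518, plus strand, 271 bases), on which the change of Inha was larger than on its last exon. It holds no GGACT.
Inha: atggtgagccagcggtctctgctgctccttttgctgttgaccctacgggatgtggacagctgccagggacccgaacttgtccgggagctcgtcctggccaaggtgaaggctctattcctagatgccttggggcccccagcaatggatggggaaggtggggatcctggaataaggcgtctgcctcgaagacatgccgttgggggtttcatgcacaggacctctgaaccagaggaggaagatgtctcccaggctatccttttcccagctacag
In the last 150 coding bases, GGACT on the sense strand was in 0 of the 10 genes, against 15.5% of 21721 protein-coding genes, which says only that these letters are not in this window. m6A was not measured here.

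All 10 genes passed the filter on low counts. Inha, Nr5a2, Kitl and Ptgs2 were higher in the cKO, Inhbb, Cyp19a1 and Fshr were lower, and Inhba, Has2 and Gja1 did not pass the test (edgeR quasi-likelihood test over 10673 genes, Benjamini-Hochberg adjusted p under 0.05). The 4 of 10 called higher stand beside 27.0% of all genes tested, and the 3 of 10 called lower beside 27.9%. In 3 genes every cKO library lay above every control library (25.0% of all genes tested) and in 1 gene every one lay below (25.1%). Their median log2 fold change was 0.62, against 0.02 for all genes tested. The 7 called genes split in direction, as the plot of levels by library shows.

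**Figure D1:**
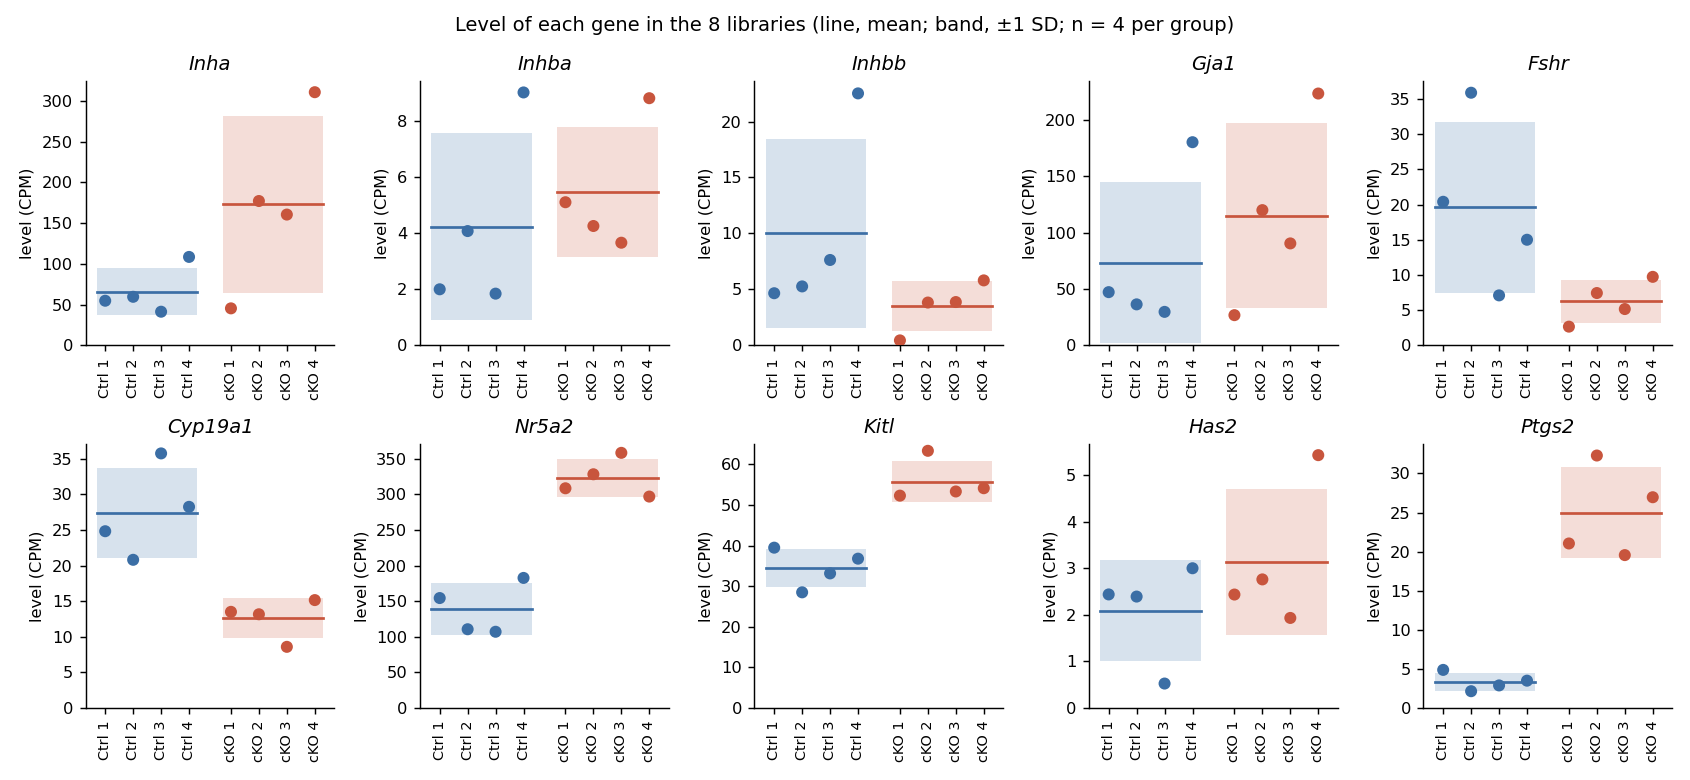
Level (CPM) of each of the 10 genes in every library, with control (Ctrl) in blue and cKO in red; the line is the mean and the band ±1 SD of 4 libraries. The groups do not overlap for Nr5a2, Kitl, Ptgs2 and Cyp19a1, and control replicate 4 and cKO replicates 1 and 4 stand apart for Inha, Gja1 and Inhbb.

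Among the secreted ligands, the alpha subunit of inhibin, Inha (ENSMUSG00000032968.4, chr1:75507077-75510366, plus strand), was at 54.8, 59.6, 41.3 and 108.6 CPM in control replicates 1 to 4 and at 45.4, 177.2, 160.6 and 310.8 CPM in cKO replicates 1 to 4. Its mean was 66.1 ± 29.4 CPM in controls against 173.5 ± 109 CPM in the cKO, and it rose by 1.39 on the log2 scale (SE 0.41, edgeR adjusted p = 0.00977). cKO replicate 1 lay below 3 of the 4 controls, while the other 3 cKO libraries lay above all of them. Without cKO replicate 4 the change was 0.97 (edgeR adjusted p = 0.0484).

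Inhbb, the beta-B subunit (ENSMUSG00000037035.5, chr1:119415465-119422248, minus strand), moved the other way from its partner. It was at 4.66, 5.27, 7.63 and 22.5 CPM in the controls and at 0.443, 3.82, 3.87 and 5.80 CPM in the cKO, a log2 fold change of -1.48 (SE 0.54, edgeR adjusted p = 0.0304). The groups overlap, since the highest cKO library exceeded 2 controls, and cKO replicate 1 held only 2 counts. This call rests on single libraries: without control replicate 4 the change was -0.73 (edgeR adjusted p = 0.211), and without cKO replicate 1, 2 or 3 the adjusted p was 0.0688, 0.0525 and 0.0548.

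Inhba, the beta-A subunit (ENSMUSG00000041324.14, chr13:16011851-16031621, plus strand), was at 2.00, 4.07, 1.84 and 9.01 CPM in the controls and at 5.10, 4.25, 3.65 and 8.80 CPM in the cKO. The log2 fold change of 0.38 (SE 0.44, edgeR adjusted p = 0.484) did not pass the test, and the groups overlap over most of their range. Control replicate 4 was the highest library for both beta subunits. Without it the change of Inhba was 1.04 (edgeR adjusted p = 0.0421).

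Kitl (ENSMUSG00000019966.18, chr10:100015630-100100416, plus strand), the ligand through which granulosa cells stimulate the receptor KIT on the oocyte, varied little within groups. It was at 39.5, 28.5, 33.1 and 36.8 CPM in the controls and at 52.3, 63.3, 53.3 and 54.1 CPM in the cKO. It rose by 0.69 on the log2 scale (SE 0.16, edgeR adjusted p = 0.00168), with every cKO library above every control. Its receptor Kit was at 5.74 to 12.6 CPM in controls against 4.30 to 7.86 CPM in the cKO and did not pass the test.

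Fshr (ENSMUSG00000032937.5, chr17:88984952-89200675, minus strand) encodes the receptor for follicle-stimulating hormone, found in the follicle on granulosa cells. Its level was 20.4, 35.9, 7.10 and 15.01 CPM in the controls and 2.66, 7.44, 5.16 and 9.74 CPM in the cKO, a log2 fold change of -1.64 (SE 0.42, edgeR adjusted p = 0.00415). Control replicate 3 lay below 2 cKO libraries and the other 3 controls lay above all 4. The fall was smallest without control replicate 2, at -1.19 (edgeR adjusted p = 0.0169).

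Nr5a2 (ENSMUSG00000026398.14, chr1:136842571-136960448, minus strand), a nuclear receptor needed in granulosa cells for ovulation, was the most abundant of the 10 by counts. It was at 154.4, 110.6, 107.1 and 182.6 CPM in the controls and at 308.4, 328.1, 358.1 and 296.8 CPM in the cKO. The groups were far apart, with a log2 fold change of 1.22 (SE 0.17, edgeR adjusted p = 2.33e-05). Nr5a2 alone made up 31.0% to 43.5% of the summed CPM of the 10 genes in controls and 31.0% to 64.5% in the cKO. Without it, the other 9 genes summed to 159.9 to 407.0 CPM in controls against 169.7 to 660.4 CPM in the cKO, and these ranges overlap.

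Of the 3 enzymes, Cyp19a1 (ENSMUSG00000032274.9, chr9:54165937-54268110, minus strand), the aromatase that makes estrogen, fell. It was at 24.8, 20.8, 35.8 and 28.3 CPM in the controls and at 13.5, 13.2, 8.60 and 15.2 CPM in the cKO (log2 fold change -1.11, SE 0.22, edgeR adjusted p = 0.000614). In this sum over its exons, every cKO library was below every control. The level rests on internal exons, and a read pair that spans 2 exons meets 2 exon IDs and would enter no count. An internal exon of 163 bases went the other way, with 21 counts in controls and 52 in the cKO.

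Ptgs2 (ENSMUSG00000032487.8, chr1:150100031-150108227, plus strand), the inducible prostaglandin synthase of the ovulatory response, showed the largest change of the 10. It was at 4.88, 2.15, 2.89 and 3.50 CPM in the controls and at 21.05, 32.3, 19.6 and 27.0 CPM in the cKO. This was a 7.34-fold rise (log2 fold change 2.88, SE 0.27, edgeR adjusted p = 5.89e-07), and the lowest cKO library was well above the highest control.

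Has2 (ENSMUSG00000022367.7, chr15:56665627-56694539, minus strand), the hyaluronan synthase that builds the cumulus matrix, was near the limit of detection. Its 97 counts over all libraries gave 2.44, 2.39, 0.526 and 3.00 CPM in the controls and 2.44, 2.76, 1.93 and 5.43 CPM in the cKO. The change of 0.59 (SE 0.44, edgeR adjusted p = 0.272) did not pass the test at this depth.

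Gja1 (ENSMUSG00000050953.10, chr10:56377330-56402513, plus strand) encodes connexin 43, the gap junction protein between granulosa cells. It was at 47.2, 36.4, 29.7 and 180.4 CPM in the controls and at 26.8, 120.1, 90.5 and 223.6 CPM in the cKO. The groups overlap widely and the change of 0.65 (SE 0.56, edgeR adjusted p = 0.341) did not pass the test. The outcome rests on control replicate 4: without it the log2 fold change was 1.59 (edgeR adjusted p = 0.0105).

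Per kilobase of countable exon, Inha and Nr5a2 stood highest in both groups, at 44.8 and 39.2 CPM per kb in controls and at 118 and 91.4 in the cKO. The mean levels of Cyp19a1, Kitl, Fshr and Gja1 lay at 9.26, 8.62, 8.31 and 7.86 CPM per kb in controls, so close that their order is within their spread. In the cKO these 4 separated, to 13.9 for Kitl, 12.3 for Gja1, 4.26 for Cyp19a1 and 2.65 for Fshr, although Gja1 itself ranged from 2.87 to 23.9 and so across the means of Kitl and Cyp19a1. Lowest in controls were Has2 (0.52), Ptgs2 (0.77) and Inhba (0.79), and lowest in the cKO were Has2 (0.77), Inhbb (0.82) and Inhba (1.02), while Ptgs2 stood at 5.74. The levels per kilobase depend on which exons take counts, and most internal exons of Fshr held few or none. Gja1 was divided by 9343 countable bases, although 99.6% of its counts lay on an exon with 2698 of them. Cyp19a1 was divided by 2963, although 63.9% of its counts lay on an exon with 242. The closeness and order of these genes therefore depend on the exons included.

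The genes also differed in how far libraries of 1 group lay apart. The biological coefficient of variation was 53.7% for Gja1, 50.5% for Inhbb, 39.7% for Inha, 39.6% for Fshr, 39.3% for Inhba and 31.2% for Has2. These 6 lay at or above the 96.0th percentile of all genes tested, whose median was 18.3%. For Ptgs2 (21.3%), Cyp19a1 (20.5%), Nr5a2 (17.5%) and Kitl (15.5%) it was near that median. Genes of the first kind ranged 6.84-fold (Inha) and 8.34-fold (Gja1) over the 4 cKO libraries, while Nr5a2 and Kitl both ranged 1.21-fold. No range is given for Inhbb, whose lowest cKO library held 2 counts, under the floor of 3.

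How the genes vary together was followed with the group difference removed, as the deviation of each library's log2 CPM from its group mean. Inha, Gja1 and Inhbb deviated in the same direction in control replicate 4 and in cKO replicates 1 and 4. In control replicate 4 they lay 0.81, 1.71 and 1.45 above their group means, in cKO replicate 4 they lay 1.13, 1.31 and 1.08 above, and in cKO replicate 1 they stood at -1.64, -1.74 and -2.10, the last of these on 2 counts. In control replicate 3 Inha and Gja1 were at their lowest among controls, at -0.58 and -0.89, but Inhbb stood at -0.08, above controls 1 and 2. Nr5a2 stood at 0.43 in control replicate 4 but at -0.12 in cKO replicate 4 and -0.06 in cKO replicate 1. The library that was highest for Inha in the cKO was thus the lowest for Nr5a2.

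**Figure D2:**
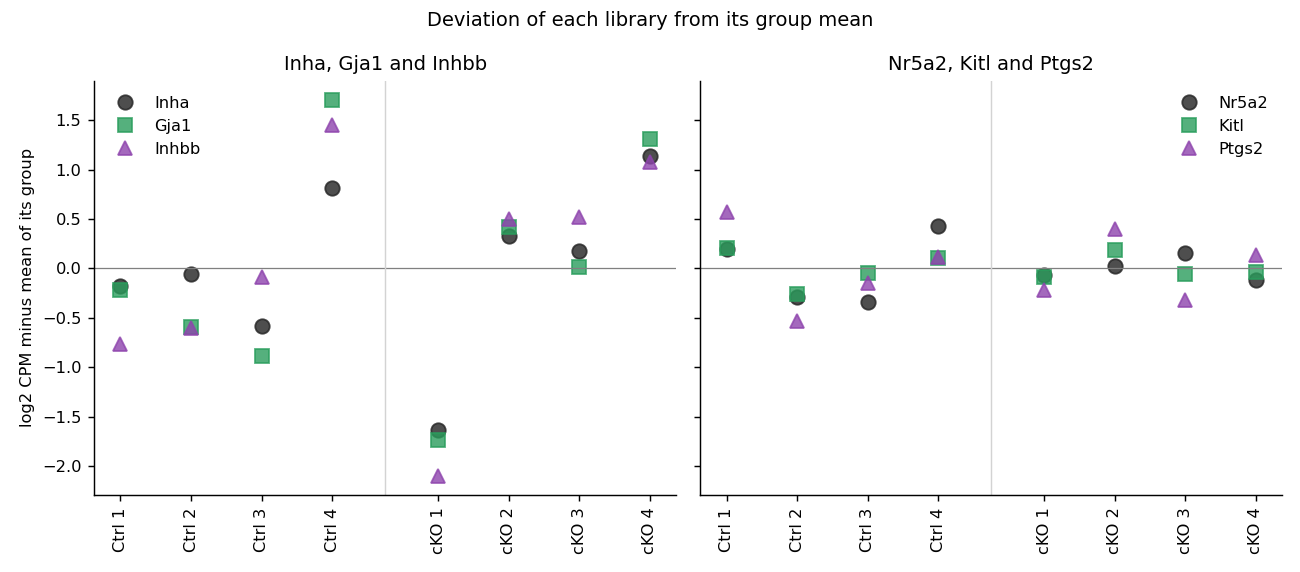
Deviation of each library from the mean of its group (log2 CPM) for Inha, Gja1 and Inhbb (left) and for Nr5a2, Kitl and Ptgs2 (right), with the 4 control libraries before the vertical line and the 4 cKO libraries after it. On the left the markers of cKO replicate 1 lie between -1.64 and -2.10 and those of cKO replicate 4 between 1.08 and 1.31; on the right no cKO library deviates by more than 0.40.

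Pearson correlations of these deviations were computed for all 45 pairs over the 8 libraries. Their p-values come from an exact permutation of libraries within groups, with 576 arrangements and a smallest p of 0.00174. For Inha and Gja1, r was 0.946 (exact permutation p = 0.00347, adjusted over the 45 pairs 0.0781) and Spearman's rho 0.952 (exact permutation p = 0.00694, adjusted 0.156). Without the 2 libraries farthest from the median of Inha, cKO replicates 1 and 4, r was 0.958. Leaving out each library in turn kept it between 0.929 and 0.983.

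Inhbb followed both, with r = 0.920 to Inha (exact permutation p = 0.0174, adjusted 0.234) and 0.920 to Gja1 (exact permutation p = 0.0208, adjusted 0.234), and rho = 0.881 in each case (exact permutation p = 0.0260 and 0.0469, adjusted 0.391 and 0.488). Without the 2 farthest libraries the first was 0.779. The second fell to 0.262 and so rested on control replicate 4 and cKO replicate 1. A second pair of genes, Kitl and Ptgs2, had r = 0.938 (exact permutation p = 0.00347, adjusted 0.0781) and rho = 0.952 (exact permutation p = 0.00694, adjusted 0.156), with r = 0.852 without the 2 farthest libraries. Both deviated by little, Kitl by -0.26 to 0.21.

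Over all 45 pairs, 6 had r above 0.7, 4 had an unadjusted p under 0.05 and 0 passed after adjustment, while 7 had r below 0 and the median was 0.346. Inha had r = 0.346 to Nr5a2 (exact permutation p = 0.281, adjusted 0.785), which became 0.779 without cKO replicates 1 and 4. It had r = 0.254 to Kitl, 0.308 to Ptgs2 and -0.04 to Cyp19a1 (exact permutation p = 0.509, 0.446 and 0.929, all adjusted to at least 0.789). In the matrix of correlations, Inha, Gja1 and Inhbb form 1 block and Kitl and Ptgs2 another, and Cyp19a1 lies outside both. The first block has no sharp edge. Has2 had r = 0.733 to Fshr and 0.719 to Inhba, Gja1 had 0.663 to Inhba, and Inha had 0.644 to Fshr. Without cKO replicates 1 and 4, r of Inha was 0.949 to Inhba and 0.761 to Has2, but 0.293 to Fshr. A pair at the smallest possible p of 0.00174 could not pass the adjustment over 45 pairs alone, whatever its r. The adjusted test could therefore decide little. With 0 of 45 pairs passing, no shared pattern was shown at this number of libraries, either within these blocks or over the 10 genes. The 10 are described by their list.

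**Figure D3:**
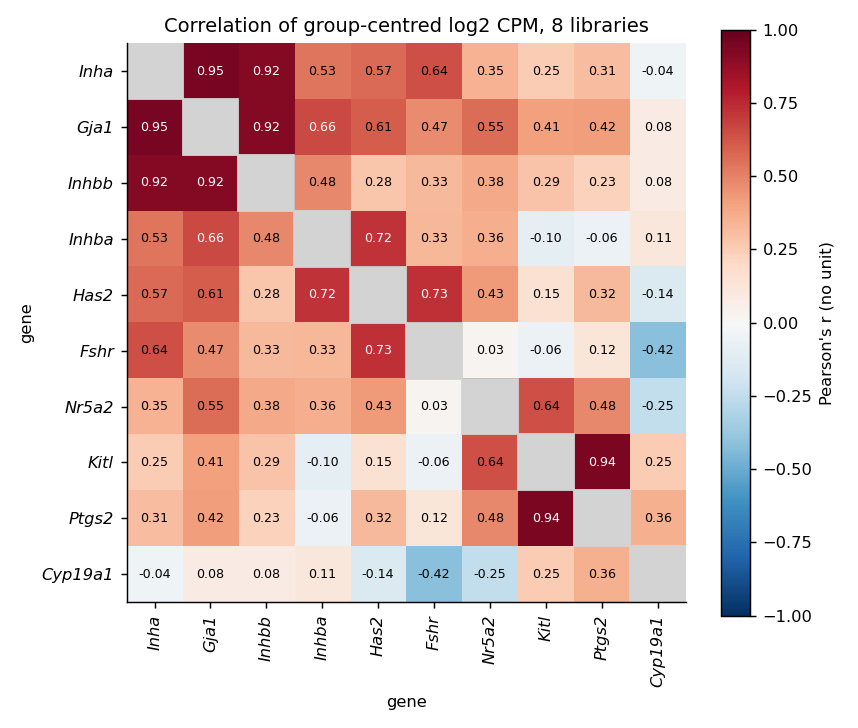
Pearson's r (colour scale from -1 to 1, no unit) between the group-centred log2 CPM of every pair of the 10 genes over 8 libraries. The squares of Inha, Gja1 and Inhbb reach 0.92 to 0.95 and that of Kitl and Ptgs2 0.94, while Cyp19a1 lies between -0.42 and 0.36 with all others. Has2 reaches 0.73 with Fshr and 0.72 with Inhba.

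Ratios within a library do not depend on scaling between libraries, and they were taken against Inha. They are ratios of counts, not of molecules, since the genes differ in countable length. Gja1 gave 86.2, 61.0, 72.0 and 166 counts per 100 counts of Inha in the controls and 59.0, 67.7, 56.4 and 71.9 in the cKO. Over the cKO libraries this ratio ranged 1.28-fold while Inha itself ranged 6.84-fold. Control replicate 4, with 166, was the only library above 86.2.

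Inhbb gave 8.50, 8.84, 18.5 and 20.7 counts per 100 counts of Inha in the controls and 0.976, 2.16, 2.41 and 1.87 in the cKO, the first of these from 2 counts of Inhbb. The groups did not overlap. Fshr gave 37.2, 60.2, 17.2 and 13.8 in the controls and 5.85, 4.20, 3.21 and 3.13 in the cKO, again without overlap. Among the 9 genes set against Inha these 2 were the only ones whose groups did not overlap, both lower in the cKO, and 7 overlapped. Inha itself was called higher and these 2 genes lower, which by itself lowers both ratios. The share of all genes whose ratio to Inha does not overlap was not computed. The ratio of Inhbb and its r of 0.920 with Inha (exact permutation p = 0.0174, adjusted 0.234) are therefore descriptions only.

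Nr5a2 behaved otherwise. It gave 282, 186, 259 and 168 counts per 100 counts of Inha in the controls and 679, 185, 223 and 95.5 in the cKO. This ratio ranged 7.11-fold over the cKO libraries, in which Nr5a2 itself ranged 1.21-fold.

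**Figure D4:**
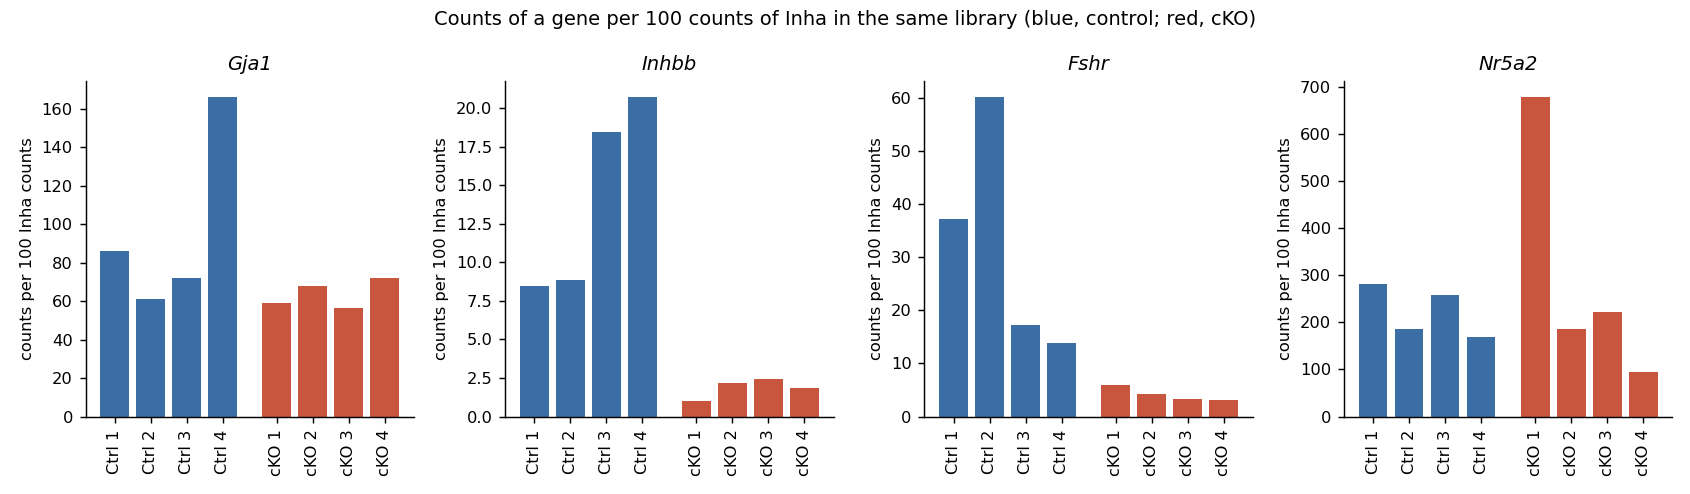
Counts of Gja1, Inhbb, Fshr and Nr5a2 per 100 counts of Inha in the same library, 1 bar per library, control (Ctrl) in blue and cKO in red, each panel with its own axis from 0. Inhbb and Fshr are lower in every cKO library than in every control, Gja1 lies at 56.4 to 71.9 in all cKO libraries, and Nr5a2 reaches 679 in cKO replicate 1.

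Genes outside the 10 that followed Inha most closely were looked for among 5019 protein-coding genes that averaged 10 CPM or more. Genes with a symbol made of Gm and a number, or ending in Rik, had been left out. The closest of the 5019 were Rimklb (r = 0.931), Scd2 (0.914), Socs2 (0.911), Slc18a2 (0.908) and Pura (0.901). Of these Scd2, a fatty acid desaturase, moved over a range like that of Inha, from 5.98 to 29.3 CPM in controls and from 2.44 to 25.8 CPM in the cKO. For Nr5a2 they were BC031181 (0.988), Phf11c (0.984), Sugct (0.980), Xrcc4 (0.968) and Fnip1 (0.966). No gene stood on both lists. Among all other tested genes 2.88% had r above 0.7 with Inha and 9.76% with Nr5a2. All genes of a library share its depth and scaling, and these values are descriptions.

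The counts of most of the 10 genes came from 1 exon. Of their 113 exon IDs 39 held a count, and the exon with the most counts held 99.8% for Kitl, 99.6% for Gja1, 99.1% for Inhbb, 96.1% for Ptgs2, 96.0% for Nr5a2 and 91.4% for Fshr, in each case a last exon. None of the exons with more than 5 counts overlapped an exon of another gene. Of 12 exons with enough counts to test, 6 were higher in the cKO (26.2% of all 14052 exons tested) and 4 were lower (27.3%).

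Inha has 2 exons. Its first rose by 2.14 on the log2 scale (SE 0.42, edgeR adjusted p = 0.000521) and its last by 1.33 (SE 0.41, edgeR adjusted p = 0.0128). The first exon held 9.72%, 7.63%, 10.2% and 8.29% of the gene's counts in the controls and 14.6%, 14.6%, 16.2% and 13.3% in the cKO. The share was higher in every cKO library, at 14.7% ± 1.20 against 8.96% ± 1.20 (SD, n = 4 each, exact two-sided permutation p = 0.0286, adjusted over 5 shares 0.0714). No smaller p is possible with 4 libraries against 4. This share was chosen after its counts had been seen, so its p describes the separation and is no independent test. The first exon held 14.6% in both cKO replicates 1 and 2, in which the whole gene was at 45.4 and 177.2 CPM.

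For Cyp19a1 the exon IDs of the coding 3′ end overlap each other and held no counts, so its level rests on internal exons. The exon of 242 bases printed above went from 74, 62, 88 and 81 counts in the controls to 34, 33, 26 and 44 in the cKO (log2 fold change -1.36, SE 0.22, edgeR adjusted p = 0.00011). An exon of 177 bases (chr9:54176476-54176652) fell likewise, by 1.44 (SE 0.31, edgeR adjusted p = 0.00118). Between them lies an exon of 163 bases (chr9:54171803-54171965) with 7, 3, 7 and 4 counts in the controls and 14, 13, 7 and 18 in the cKO, too few to be tested alone.

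That exon held 4.60% ± 1.35 of the gene's counts in controls and 20.9% ± 2.42 in the cKO, with no overlap (SD, n = 4 each, exact two-sided permutation p = 0.0286, adjusted 0.0714). The rise of this share went with the opposite course of the neighbouring exons, and neither it nor the share of Inha passed 0.05 after adjustment. Both had the smallest possible exact permutation p, 0.0286, and could not pass among 5 shares unless another reached it too. How common such shifts are over all genes was not tested. The 5 exon shares compared were chosen after the counts had been seen, so their p-values are descriptions and no independent tests. The other 3, the last exons of Nr5a2, Fshr and Inhba, had exact permutation p = 0.114, 0.0571 and 0.114 (adjusted 0.114, 0.0952 and 0.114).

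**Figure D5:**
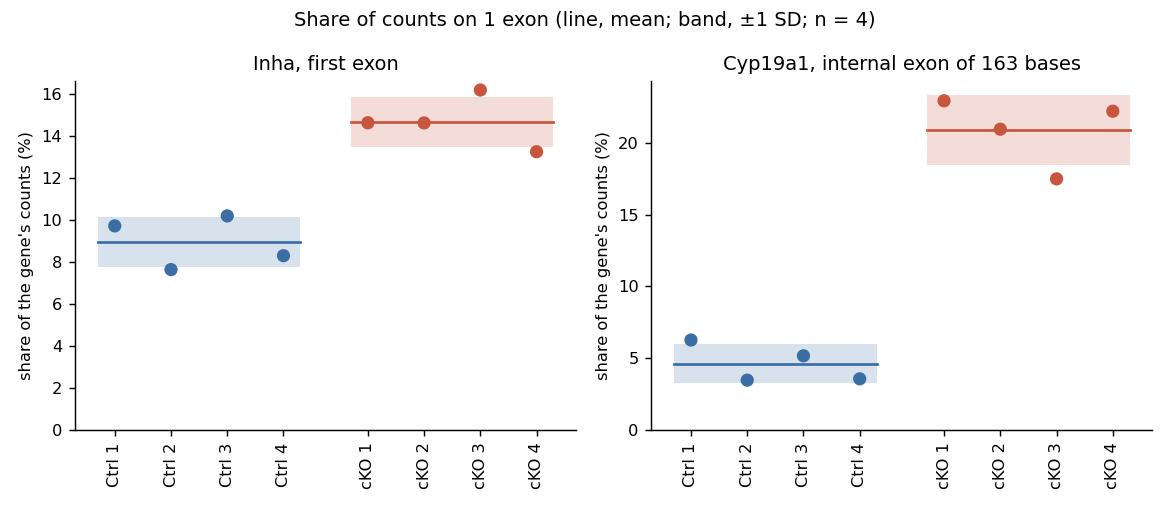
Share of the gene's counts (%) on the first exon of Inha (left) and on the internal exon of 163 bases of Cyp19a1 (right), 1 point per library, control (Ctrl) in blue and cKO in red, with the mean as a line and ±1 SD as a band (n = 4). Both shares are higher in every cKO library, 14.7% against 8.96% and 20.9% against 4.60% on average. How common such shifts are over all genes was not tested.

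Fshr gave a similar contrast on few counts. Its last exon (chr17:88984952-88986394) fell by 1.74 (SE 0.43, edgeR adjusted p = 0.00311), while its first exon (chr17:89200461-89200675) held 0 counts in every control and 1, 1, 2 and 6 in the cKO. A 0 in a single library allows up to 3 counts, a limit that only cKO replicate 4 exceeded. Pooled over the 4 libraries of a group, the first exon totalled 0 for controls and 10 for knockouts, and single libraries did not overlap. It held too few counts to enter the exon test, so this difference was not tested. Kitl was counted almost entirely on 1 last exon outside the coding sequence (chr10:100096018-100100416), which rose by 0.73 (SE 0.16, edgeR adjusted p = 0.00114).

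The other genes of the pathways to which the 10 belong were read from 4 lists. On the list of inhibin, activin and BMP signalling 8 of 14 tested genes rose and 0 fell, beside 27.0% and 27.9% of all genes tested (median log2 fold change 0.48). Those that rose were all receptors, a pseudoreceptor or SMAD proteins that carry the signal inside cells. Acvr2a, a type II activin receptor, was at 27.6 ± 8.31 CPM in controls against 131 ± 21.3 CPM in the cKO (a rise of 2.24 on the log2 scale, SE 0.21, edgeR adjusted p = 5.03e-07), Smad5 from 6.98 ± 3.15 to 38.7 ± 10.6 (2.46), the pseudoreceptor Bambi from 14.0 ± 6.20 to 47.8 ± 10.9 (1.77) and Bmpr1a from 143 ± 26.9 to 281 ± 32.9 CPM (0.97). The most abundant, Smad3, rose by 0.48 (edgeR adjusted p = 0.00931). None of these 5 followed Inha between libraries, with r between -0.43 and 0.25.

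On the list of gonadotropin receptors, steroid synthesis and granulosa transcription factors 1 of 10 tested genes rose and 2 fell (27.0% and 27.9% over all genes, list median -0.07). Gata6, a transcription factor of granulosa cells, rose by 1.53 (SE 0.27, edgeR adjusted p = 0.000186). Runx2, a transcription factor induced before ovulation, had a log2 fold change of -1.50 (SE 0.31, edgeR adjusted p = 0.000696). The estrogen receptor Esr1 went from 178 ± 25.6 to 109 ± 26.0 CPM (log2 fold change -0.71, SE 0.17, edgeR adjusted p = 0.00300). Hsd17b7, the most abundant of the list by its mean over all libraries and an enzyme of steroid and cholesterol synthesis, was at 149 ± 24.3 and 183 ± 5.36 CPM and was not called (log2 fold change 0.29, SE 0.13, edgeR adjusted p = 0.0800). Hsd17b1, an enzyme of estrogen synthesis in granulosa cells, was not called (log2 fold change 1.24, SE 0.52, edgeR adjusted p = 0.0558), but at 4.44, 1.44, 1.84 and 5.00 CPM in controls and 1.33, 8.50, 6.45 and 13.7 CPM in the cKO it had r = 0.904 with Inha.

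Of 23 cumulus expansion genes, 7 had 0 counts in every library, among them the EGF-like ligands Areg, Ereg and Btc, and 5 could be tested, of which 1 rose and 3 fell (27.0% and 27.9% over all genes, list median -0.49). A count of 0 in these files does not show that a transcript is absent, since a read shared by several exon IDs enters no gene's count. Ptges, the prostaglandin E synthase that acts after Ptgs2, went from 8.34 ± 1.99 to 3.29 ± 1.21 CPM (log2 fold change -1.32, SE 0.30, edgeR adjusted p = 0.00188) and thus opposite to Ptgs2. The prostaglandin receptor Ptger4 rose by 0.59 (edgeR adjusted p = 0.0189), Errfi1 fell by 0.49 (edgeR adjusted p = 0.0190) and the EGF receptor Egfr, the most abundant, fell by 0.50 (edgeR adjusted p = 0.0318).

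Among genes of contact between oocyte and cumulus 4 of 13 tested rose and 1 fell (27.0% and 27.9% over all genes, list median 0.15). Notch2, a receptor for ligands of the neighbouring cell, rose from 36.02 ± 11.0 CPM in controls to 263 ± 33.4 CPM in the cKO (log2 fold change 2.87, SE 0.21, edgeR adjusted p = 6.75e-08), and Jag1, one of its ligands and the most abundant of the list, was not called (-0.23, SE 0.15, edgeR adjusted p = 0.220). Of the connexin genes, Gjc1 rose by 3.32 (SE 0.39, edgeR adjusted p = 4.87e-06) and Gja5 fell by 2.61 (SE 0.26, edgeR adjusted p = 1.21e-06), while Gja3, Gjb2 and Gja1 were not called. Nor was Gja4, the connexin of the oocyte itself and the most abundant one, at 2481 ± 666 and 2384 ± 165 CPM (log2 fold change -0.06, SE 0.16, edgeR adjusted p = 0.785). N-cadherin, Cdh2, rose by 0.98 (SE 0.20, edgeR adjusted p = 0.000648).

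A wider list of 22 granulosa and cumulus markers holds the 10 genes and 12 others. Of those 12, Nr5a1 and Slc38a3 had 0 counts in every library, which, as above, does not show that they are absent. Amh, Amhr2, Fst, Cyp11a1 and Krt18 did not exceed 1.72 CPM in any library, and Fst, Amhr2 and Krt18 held 0 in most, although Amh and Amhr2 are defining genes of growing follicles. Foxl2, Lhcgr and Gatm did not exceed 2.50 CPM. Krt8 rose, with 0.665 to 4.55 CPM in controls against 9.56 to 65.1 CPM in the cKO (log2 fold change 4.08, SE 0.62, edgeR adjusted p = 5.84e-05), without its usual partner Krt18. The whole list summed to 273.6 to 601.9 CPM in controls and 497.0 to 1034 in the cKO, and its part in the differences above was not tested.

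Markers of theca, stroma and vessels were low, and those of immune cells and blood were low or 0 apart from C1qb. As above, a count that is low or 0 in these files does not show that a transcript is absent. Theca and stroma markers summed to 7.89 to 9.34 CPM in controls and 5.76 to 8.99 CPM in the cKO, with 0 of 2 tested genes called and Tcf21 at 0 in every library. Vessel markers summed to 11.3 to 17.4 and 7.01 to 13.5 CPM, and of 4 tested Kdr rose by 0.90 (edgeR adjusted p = 0.0469) while Vwf (log2 fold change -4.24, edgeR adjusted p = 4.37e-05) and Pecam1 (-1.40, edgeR adjusted p = 0.00673) fell, beside 27.0% and 27.9% of all genes. The immune and blood list summed to 343.5 to 417.9 CPM in controls against 358.5 to 466.4 CPM in the cKO. Of the immune and blood markers Ptprc, Adgre1, Cd74 and the haemoglobin genes were at 0 in every library, C1qb alone held 343 to 416 CPM in controls and 353 to 458 in the cKO and was not called, and C1qa rose (log2 fold change 5.07, SE 0.52, edgeR adjusted p = 1.40e-06). For the oocyte markers 5 of 11 tested genes fell and 0 rose, beside 27.9% and 27.0% of all genes. The share of reads that met more than 1 exon ID also differed, from 72.9% to 75.4% in controls and 78.8% to 80.4% in the cKO. Reads outside exons made up 9.86% to 12.0% in controls and 5.01% to 6.19% in the cKO. The part of these shares in the differences was not tested.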

How the data were processed

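RNA of 8 oocyte libraries, 4 per group, was primed with oligo-dT, and the amplified cDNA was cut by tagmentation and read from both ends (150 bp), per the labels' protocols; strand is not marked. Each library's file, as deposited, holds raw counts for each exon ID, and the submitters' processing notes name STAR, HTSeq and mm10. Versions and settings: not given in the sources used here. Per the file headers and rows, 5 summary rows name no exon and were kept out of all gene sums. Percentages of reads are over counts on exon IDs, reads meeting more than 1 exon ID and reads outside exons. The other summary rows are not in that total. Reads meeting more than 1 exon ID make up 72.9% to 80.4% of it and the deposited counts on exon IDs 14.6% to 15.6%. Reads outside exons make up 9.86% to 12.0% in controls and 5.01% to 6.19% in the cKO. The library total therefore holds a part of the reads, and the 261976 exon IDs with no base outside other exon IDs hold 0.213% of matched counts.

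Exon IDs were matched to GENCODE M21 without versions. Of 496288 IDs, 494230 (99.6%) matched. The rest, 2058 with 0.252% of counts, were left out. Of matched counts 85.5% lay on last exons. Gene counts are sums over exon IDs, filtered by filterByExpr (minimum count 10), scaled by TMM factors and compared in edgeR 4.0.16 (R 4.3.3) by its quasi-likelihood test, two-sided, with group as the only term and Benjamini-Hochberg adjustment over all genes or exons tested. Deviations use log2 CPM with a prior count of 1. Single shares were compared by an exact permutation test over 70 arrangements. The floor of 3 counts covers counting error alone, since PCR copies are not separate molecules. No pair of libraries agreed within sampling noise.

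The genes named are the 10 genes, Virma and markers. From each pathway list come up to 4 called genes of smallest p and the gene of highest mean CPM. From the 5019 genes described above come the 5 of highest r with Inha and with Nr5a2. Hsd17b1, Kit and the exon shares were singled out after their values were seen. The 10 genes and the lists (92 genes on 4 pathway lists, and marker lists) were chosen with earlier results of these data known. Alternatives were other scaling factors and library sizes, DESeq2 1.42.0, other filters, last exons left out, protein-coding genes alone, each library left out, and the replicate number as a block; leaving out 3 libraries together was added after seeing the data. For control against cKO, counts were simulated with 200 changed genes or exons. The gene test over 10413 genes called 16.7% of genes changed 1.5-fold, 76.8% at 2-fold and 100% at 4-fold, and 4 unchanged genes. The exon test over 13528 exons called 7.25%, 50.0% and 96.5% and 5 unchanged exons. In the data far more genes were called, 2883 higher and 2973 lower. Gja1, Inhbb, Inha, Fshr, Inhba and Has2 also varied more than most genes. The simulated rates therefore do not give the power for the 10 genes.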

Additional observations from a re-analysis of the deposited data

Results flagged for a closer look

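Single libraries stood apart from the other 3 of their group for 3 of the 20 combinations of gene and group, with a gap to the nearest of them that took up more of the group's whole range than Dixon's test allows at 95%. Chance alone flags about 1 in 20 groups. Inhbb was at 22.5 CPM in control replicate 4, with a gap of 0.834 of the range. Gja1 was at 180.4 CPM in the same library, with a gap of 0.884. Kitl was at 63.3 CPM in cKO replicate 2, with a gap of 0.835.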

How the results depend on the processing

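The log2 fold changes of the 10 genes were recomputed under 19 other settings. Of 183 values 172 kept their direction and side of the threshold, 7 lost the call, 4 gained one and 0 reversed. Inhbb lost its call with DESeq2 (adjusted p = 0.0959), with no scaling factors (0.0543), without each of 4 single libraries and without control replicate 4 and cKO replicates 1 and 4 together (-0.59, edgeR adjusted p = 0.231). Gja1 gained one with no filter on low counts (0.67), without control replicate 4 and without those 3 libraries (1.48, edgeR adjusted p = 0.000446), and Inhba without control replicate 4. The cause was not tested. With each library left out in turn, 4 to 6 of the genes were higher and 2 to 3 lower, 2602 to 3068 of all genes higher and 2764 to 3018 lower, 5 to 7 of the exons higher and 3 to 4 lower, and 5 to 11 pairs had r above 0.7 (10 without control replicate 2, 11 without cKO replicate 1). With last exons left out, fewer genes (4189) held enough counts: 973 were higher and 995 lower, and of 3 testable among the 10, 2 were higher and 1 lower. Leaving out scaling moved the median log2 fold change of all genes from 0.02 to 0.18. Taking reads on exon IDs, reads meeting several of them and reads outside exons together as library size moved it to 0.16. The changes of single genes are to be read relative to that median. The replicate numbers did not pair the libraries (r of deviations 0.0984, -0.0474, 0.0976 and 0.0639 for numbers 1 to 4, and not every library correlated best with its own number). With the replicate number as a block the counts were 4 higher and 3 lower of the 10 genes, 2885 and 2908 of all genes, and 6 and 4 of the exons. Has2, Inhba and Inhbb rest on 97 to 231 counts in all, which limits what could be detected.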
